A study of Mus musculus with 13 samples.

Results

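The miRNAs of 2 imprinted regions of the mouse genome, the Mest locus and the Gnas locus, were followed across mouse hippocampus and prefrontal cortex (PFC). Their members were the hairpins mmu-mir-335, mmu-mir-296 and mmu-mir-298 with both of their arms, 6 of the 1514 pairs of hairpin and mature miRNA listed over all libraries and 3 of 903 hairpins. The hairpins were chosen by their genomic loci, but with the level of miR-335-5p in TgR against FVB/N hippocampus already known. For the 6 arms that comparison is therefore described here without a test, and nothing about them is drawn from it. Calls of other miRNAs in it are given beside them.

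Small RNA was sequenced from 13 mouse brain libraries. TgR mice carry a transgene for human AChE-R, the "readthrough" splice variant of acetylcholinesterase (the enzyme that breaks down acetylcholine), driven without tissue restriction by a cytomegalovirus promoter and enhancer. Their controls were wild-type mice of the same strain, FVB/N. There were 3 FVB/N and 3 TgR hippocampal libraries, and 3 FVB/N and 4 TgR PFC libraries. The labels gave neither the age of these mice nor the transgenic line they came from, named no sequencing batch, and did not say whether hippocampus and PFC came from the same animals. Assigned counts ran from 8769851 to 18385985 per library, with a median of 15376927, and 5 miRNAs typical of neurons were detected in every group.

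An imprinted gene is transcribed mainly from the copy inherited from one parent. Mest is expressed from the paternal copy, and mir-335 lies inside it. The Gnas locus encodes the stimulatory G protein alpha subunit and several overlapping imprinted transcripts, among them the antisense RNA Nespas, which is transcribed from the paternal copy. A miRNA hairpin is cut into a 5p and a 3p arm, either of which can be loaded into an Argonaute protein, where bases 2 to 8 of the mature strand, the seed, choose most targets.

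By position (GRCm38), mir-335 occupied chr6:30741299-30741396 on the plus strand. It lay in an intron of all 7 annotated Mest transcripts that span it, the intron chr6:30740825-30742140, which is intron 3 of the 13-exon transcript Mest-202. The hairpins mir-296, at chr2:174267047-174267125, and mir-298, at chr2:174267504-174267585, were both on the minus strand and 378 bases apart. Neither overlapped an annotated gene. They lay on the strand of Nespas, 13651 bases beyond its annotated end, and 16734 bases from the start of Gnas.

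The 6 mature strands are shown because the comparisons below treat the arms of one hairpin as separate molecules with separate targets. The sequences are those of RefSeq (GRCm38.p6), written 5′ to 3′ with the seed in capitals.

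miR-335-5p: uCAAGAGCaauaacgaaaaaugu

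miR-335-3p: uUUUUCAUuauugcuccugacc

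miR-296-5p: aGGGCCCCcccucaauccugu

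miR-296-3p: gAGGGUUGgguggaggcucucc

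miR-298-5p: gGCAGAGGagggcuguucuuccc

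miR-298-3p: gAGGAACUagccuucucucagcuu

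No seed was shared between the 6 strands, and no other mature mouse miRNA in the RefSeq table carried any of them. Each strand was listed at a single hairpin, so that no count was split between copies.

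All 6 arms were counted in all 13 libraries and all passed the filter on low counts in each comparison. Levels are given as counts per 1000000 assigned counts (CPM), scaled between libraries by the trimmed mean of M values (TMM) method. Capture in small RNA libraries differs between sequences, so that the order of different miRNAs is approximate. Averaged over all libraries, miR-335-3p (305 CPM) and miR-335-5p (286 CPM) ranked 150 and 153 of 751 tested pairs. The leading arm of mir-298, miR-298-5p, ranked 280 (37.3 CPM). The arms of mir-296 ranked 456 (miR-296-3p, 6.63 CPM) and 459 (miR-296-5p, 6.38 CPM), and miR-298-3p ranked 655 (1.12 CPM).

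miR-335-5p was at its lowest in FVB/N hippocampus, where the 3 libraries held 99.5, 189 and 140 CPM. In TgR hippocampus it stood at 304, 351 and 219 CPM. FVB/N PFC gave 291, 322 and 403 CPM, and TgR PFC gave 327, 366, 401 and 306 CPM. FVB/N hippocampus thus lay below every other library, while the remaining 3 groups overlapped. In the order FVB/N hippocampus, TgR hippocampus, FVB/N PFC and TgR PFC, the means were 143 ± 44.7, 291 ± 67.1, 339 ± 57.9 (SD, n = 3 each) and 350 ± 42.2 CPM (SD, n = 4).

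The other arm, miR-335-3p, followed the same order of group means. It was counted at 139, 199 and 181 CPM in FVB/N hippocampus and at 248, 257 and 195 CPM in TgR hippocampus. In PFC it reached 289, 323 and 463 CPM in FVB/N and 499, 324, 417 and 434 CPM in TgR mice. Every hippocampal library was below every PFC library, and the genotypes overlapped within each region. Group means were 173 ± 30.9, 233 ± 33.5, 358 ± 92.3 (SD, n = 3 each) and 419 ± 72.5 CPM (SD, n = 4).

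**Figure D1:**
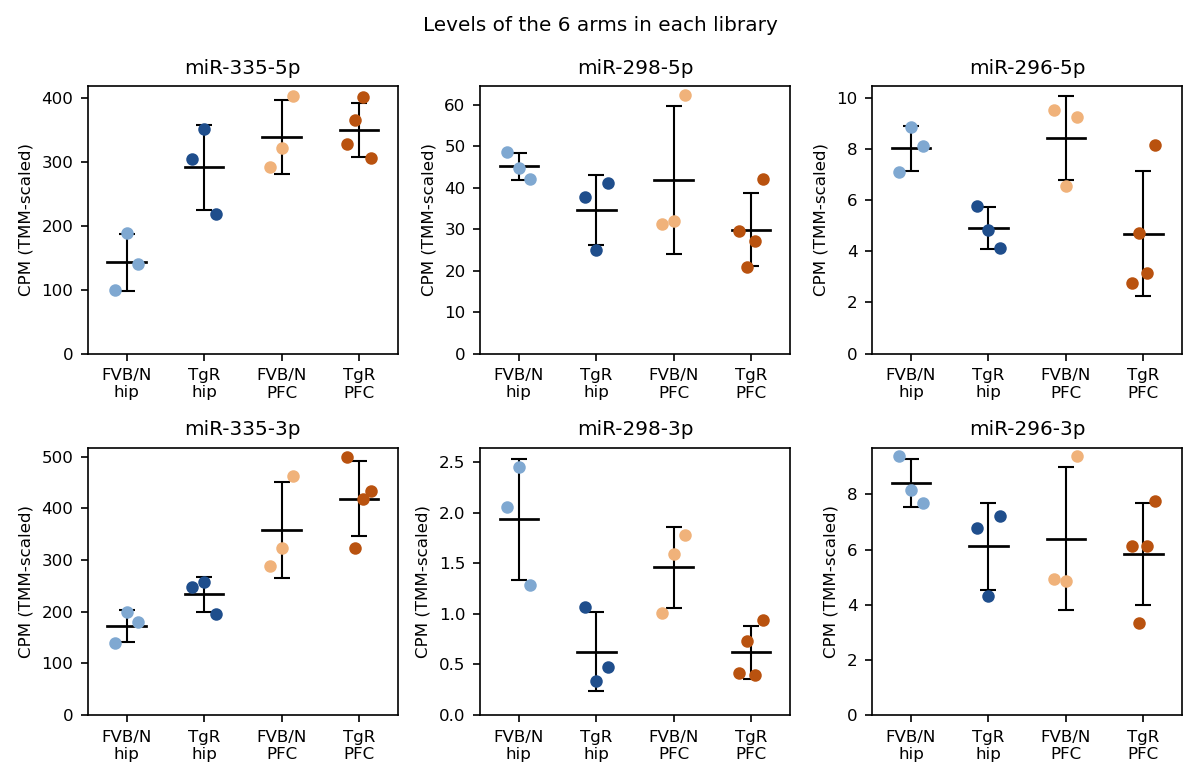
Level of each of the 6 arms (TMM-scaled CPM, linear axes from 0) in every library, by genotype and region. Points are libraries, horizontal lines are group means and error bars are SDs. Both arms of mir-335 are lowest in FVB/N hippocampus, with means of 143 (5p) and 173 CPM (3p), while miR-298-3p lies lower in TgR than in FVB/N libraries of the same region.

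The first tested question was whether the brain regions differ within a genotype. In FVB/N mice both arms of mir-335 were lower in hippocampus than in PFC. miR-335-5p differed by a log2 fold change of −1.25 (SE 0.23), a 2.38-fold lower level (edgeR quasi-likelihood test, Benjamini-Hochberg adjusted p = 0.0060). miR-335-3p differed by −1.05 (SE 0.21), or 2.07-fold (adjusted p = 0.0094 by the same edgeR test). These were the 2 of 6 arms called, where 5.33% of all 751 tested pairs were called in either direction. For both arms the groups did not overlap, and 9.45% of all tested pairs were lower without overlap. Each call held under all 13 alternative settings and left-out libraries. The FVB/N hippocampal libraries in this comparison are also the controls of the hippocampal genotype comparison known beforehand. These 2 calls are therefore not independent of the choice of mir-335.

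In TgR mice, miR-335-3p was again lower in hippocampus than in PFC, with a log2 fold change of −0.84 (SE 0.20) or 1.79-fold (edgeR adjusted p = 0.020). It was the only arm of 6 called, against 7.99% of all tested pairs, and its groups did not overlap, as for 12.4% of all tested pairs in this direction. The call was lost without TgR PFC replicate 1 (edgeR adjusted p = 0.061) or 3 (0.053), or without TgR hippocampus replicate 1 (0.051) or 3 (0.085), and the log2 fold change then ran from −0.88 to −0.72. Markers of other cell types differed in the same comparison. In TgR hippocampus against TgR PFC, edgeR called 6 of 8 tested miRNAs of the choroid plexus, the epithelium that makes cerebrospinal fluid, higher (median log2 fold change 2.48), 3 of 4 red blood cell miRNAs lower (median −1.24), 2 of 4 white blood cell miRNAs lower (median −0.61) and 1 of 5 neuronal miRNAs lower (median −0.12). Of 6 tested endothelial and mesenchymal miRNAs none was called in TgR mice (median −0.32). In FVB/N mice edgeR called 1 of 8 choroid plexus miRNAs higher and none of the other lists. Their part in the regional difference of miR-335-3p was not tested. miR-335-5p did not pass in TgR mice, with a log2 fold change of −0.27 (SE 0.22, edgeR adjusted p = 0.58). Its approximate 95% interval was a level in hippocampus of 0.621 to 1.12 times that in PFC. The TgR hippocampal libraries are also part of the hippocampal genotype comparison known beforehand. The regional tests of mir-335 are therefore not independent of its choice. How far the regional difference of miR-335-5p departed from that in FVB/N mice is given below as a description, because it contains that genotype comparison. In bulk tissue, fewer cells that express a miRNA and less of it per cell cannot be told apart.

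The 4 arms of the Gnas locus were not called between regions in either genotype. Their hippocampus to PFC log2 fold changes in FVB/N mice were 0.11 (SE 0.30) for miR-298-5p, 0.43 (SE 0.40) for miR-298-3p, −0.07 (SE 0.33) for miR-296-5p and 0.39 (SE 0.32) for miR-296-3p. In TgR mice they ran from 0.05 to 0.21, with SEs of 0.28 to 0.46. By edgeR none of the 4 had an unadjusted p under 0.05 in either genotype, and DESeq2 called none, giving miR-298-3p no adjusted p in FVB/N mice. The intervals were wide. For miR-298-5p, the most abundant of the 4, the approximate 95% interval of the ratio of hippocampus to PFC was 0.722 to 1.62 in FVB/N and 0.792 to 1.68 in TgR mice.

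**Figure D2:**
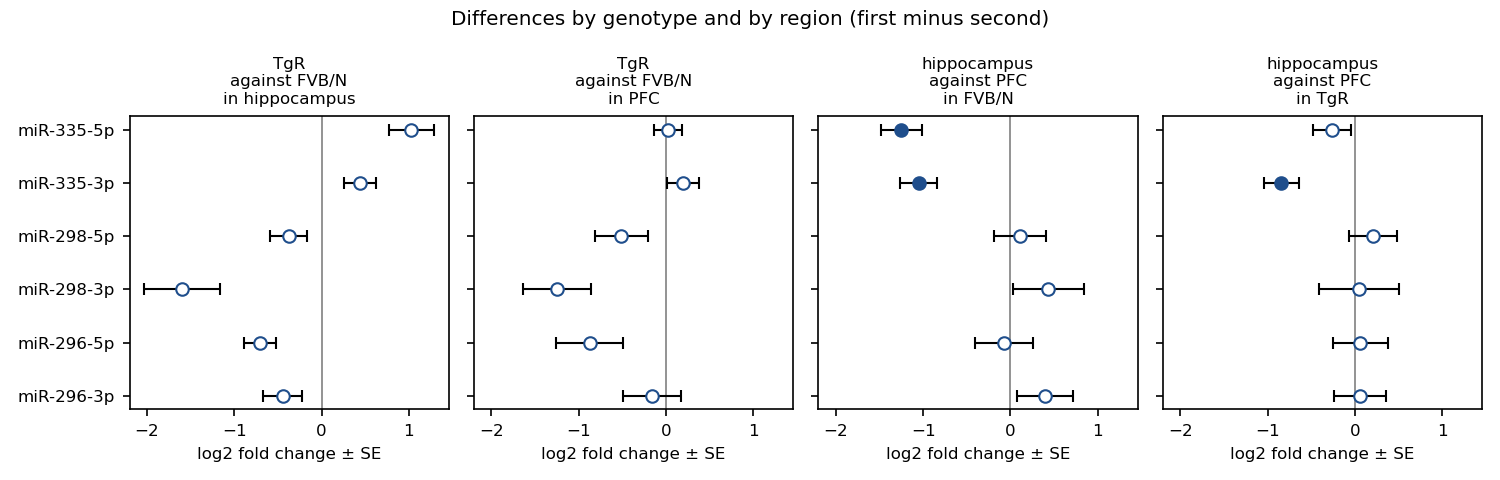
Log2 fold change of each arm (points, with SE bars) in the genotype comparison of each region and the region comparison of each genotype. Filled points passed the edgeR test at an adjusted p of 0.05. Open points in the first panel are a description without a test. Only arms of mir-335 passed, both in FVB/N mice (−1.25 and −1.05) and miR-335-3p in TgR mice (−0.84).

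The genotype comparison in PFC used no library on which the choice of members rested. Its outcome had been reported before, since the authors found no differentially expressed miRNA in TgR PFC. Neither arm of mir-335 passed. miR-335-5p differed between TgR and FVB/N PFC by 0.03 on the log2 scale (SE 0.16), with an approximate 95% interval of 0.817 to 1.27 times the FVB/N level, and miR-335-3p by 0.20 (SE 0.19), with an interval of 0.889 to 1.47 times. No arm of the 6 was called by edgeR (adjusted p = 1.00 for each) or by DESeq2, where edgeR called 0.137% of 730 tested pairs, a single pair. By edgeR an unadjusted p under 0.05 was given for 1 arm, miR-298-3p, beside 19 of all 730 tested pairs.

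This minor arm of mir-298 stood at 1.01, 1.59 and 1.78 CPM in FVB/N PFC and at 0.412, 0.731, 0.396 and 0.939 CPM in TgR PFC. All 4 TgR values were below all FVB/N values, a pattern shared by 1.37% of tested pairs in this direction. The log2 fold change was −1.25 (SE 0.38, edgeR adjusted p = 1.00), and it kept its sign under all 14 alternatives. Behind these levels were 17 to 25 counts per FVB/N and 6 to 15 per TgR library.

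The remaining Gnas arms also had lower means in TgR PFC but overlapped. miR-296-5p was at 9.51, 6.55 and 9.24 CPM in FVB/N and at 2.75, 4.70, 3.17 and 8.14 CPM in TgR PFC. TgR replicate 4 alone lay inside the FVB/N range. Its log2 fold change was −0.87 (SE 0.38, edgeR adjusted p = 1.00). miR-298-5p was at 31.2, 31.9 and 62.5 CPM in FVB/N PFC and at 29.7, 20.9, 27.1 and 42.0 CPM in TgR PFC, a log2 fold change of −0.51 (SE 0.30, edgeR adjusted p = 1.00). Here FVB/N replicate 3 stood well above the other FVB/N libraries, and without it the log2 fold change was −0.12. miR-296-3p showed a log2 fold change of −0.16 (SE 0.33).

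In hippocampus, where the choice of members had used the genotype comparison, the values are a description. miR-335-5p was 2.04-fold higher on average in TgR mice, a log2 fold change of 1.03 (SE 0.26), and its groups did not overlap, as for 11.4% of 726 tested pairs in that direction. miR-335-3p differed by 0.44 (SE 0.18), and its groups overlapped narrowly on the TMM scale (up to 199 CPM in FVB/N, from 195 CPM in TgR) but not when counts were scaled by library totals alone. The difference between the hippocampal and the PFC genotype effect was 0.98 log2 (SE 0.31) for miR-335-5p and 0.21 (SE 0.29) for miR-335-3p, which is also the difference between genotypes in the regional contrast.

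All 4 Gnas arms were lower in TgR hippocampus without overlap, as were 13.2% of tested pairs. miR-298-3p was at 2.06, 2.46 and 1.28 CPM in FVB/N and at 1.07, 0.332 and 0.475 CPM in TgR hippocampus (log2 fold change −1.60, SE 0.43, and −2.28 without TgR replicate 1), from 5 to 41 counts per library. miR-296-5p was at 7.11, 8.87 and 8.11 CPM in FVB/N and at 5.77, 4.85 and 4.12 CPM in TgR hippocampus (−0.70, SE 0.19). The gaps were narrow for miR-298-5p (at least 42.2 CPM in FVB/N and at most 41.0 CPM in TgR, −0.38, SE 0.21) and miR-296-3p (at least 7.71 and at most 7.24 CPM, −0.45, SE 0.22). With scaling by library totals alone these 2 arms overlapped, and the other 2 did not.

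Markers of the choroid plexus and of red blood cells moved with genotype in the same hippocampal libraries. None of the tested endothelial and mesenchymal, white blood cell or neuronal miRNAs was called there by edgeR (median log2 fold changes −0.11, 0.02 and 0.08). Over 9 miRNAs of the choroid plexus, the summed level was 959 to 1342 CPM in FVB/N and 1613 to 5872 CPM in TgR hippocampus, with 5 of 8 tested called higher by edgeR. In PFC the same sum was 620 to 844 CPM in FVB/N and 667 to 953 CPM in TgR mice. Over 4 red blood cell miRNAs the sum was 1057 to 1173 CPM in FVB/N and 481 to 653 CPM in TgR hippocampus. No marker of the choroid plexus or red blood cell list was at 0 in all libraries of a group. The TgR hippocampal library with the least choroid plexus signal, replicate 2 at 1613 CPM, held the most miR-335-5p of that group, 351 CPM. The other 2 libraries, at 5872 and 4909 CPM of choroid plexus miRNAs, held 304 and 219 CPM of miR-335-5p. The part of these cell types in the values of the 6 arms was not tested.

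**Figure D3:**
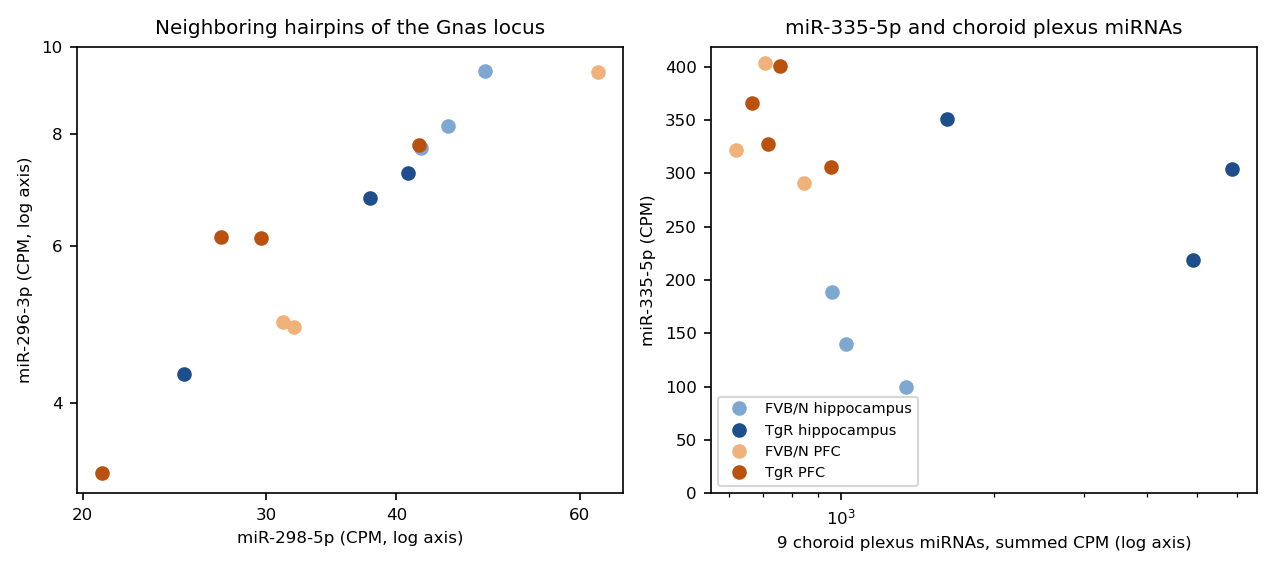
Left, miR-296-3p against miR-298-5p (CPM, both axes log) in each of the 13 libraries, which rise together (r = 0.93). Right, miR-335-5p (CPM, from 0) against the summed CPM of 9 choroid plexus miRNAs (log axis). The TgR hippocampal library with 351 CPM of miR-335-5p has the lowest choroid plexus sum of its group, 1613 CPM.

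The share of a hairpin's counts that come from the 5p arm does not depend on how libraries are scaled. For mir-335 both arms were used about equally. The 5p share was 41.8, 48.7 and 43.6% in FVB/N hippocampus and 55.1, 57.7 and 52.9% in TgR hippocampus, groups that did not overlap and differed by 10.5 percentage points, which is again a description. In PFC it was 50.2, 50.0 and 46.6% in FVB/N and 39.6, 53.1, 49.0 and 41.3% in TgR mice. The TgR PFC libraries spread widely, with 2 of 4 below every FVB/N library. Counting error was small beside this spread, with 95% Wilson intervals 1.75 to 3.46 points wide.

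The PFC difference between genotypes in the mir-335 share, −3.16 points, was within the spread (exact permutation test, two-sided, p = 0.40, adjusted 0.59, smallest possible p 0.029). The difference between hippocampus and PFC over both genotypes was 2.63 points (exact permutation test within genotype, two-sided, p = 0.40, adjusted 0.59). That value pooled opposite directions. In FVB/N mice alone hippocampus minus PFC was −4.22 points (exact permutation p = 0.20), and in TgR mice alone it was 9.49 points (exact permutation p = 0.086). Both use hippocampal libraries of the genotype comparison known beforehand. The opposite directions are therefore a description, and nothing is drawn from these p-values. Adjusted values are over the 4 main permutation tests. Permutation p-values within a single genotype, here and below, are unadjusted.

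mir-298 used its 5p arm almost alone, with group means of 95.9 ± 1.13% in FVB/N hippocampus, 98.3 ± 0.886% in TgR hippocampus, 96.4 ± 1.06% in FVB/N PFC (SD, n = 3 each) and 97.9 ± 0.935% in TgR PFC (SD, n = 4). Hippocampus and PFC differed by −0.081 points within genotype (exact permutation test, two-sided, p = 0.89, adjusted 0.89). For mir-296 the share varied from 31.0 to 65.8% between libraries. Its 77 to 284 counts per library left intervals 11.5 to 21.5 points wide for a single library, and differences between groups were not tested for this hairpin.

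**Figure D4:**
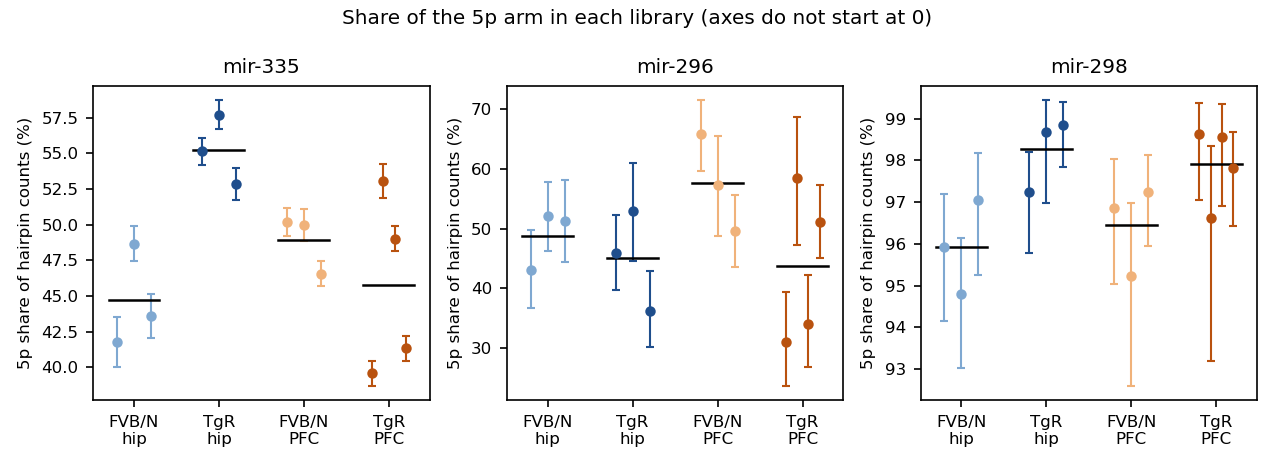
Share of each hairpin's counts from the 5p arm (%, axes not starting at 0) in every library. Points are libraries with 95% Wilson intervals, which cover counting error only, and horizontal lines are group means. The mir-335 share is 52.9 to 57.7% in TgR hippocampus and 41.8 to 48.7% in FVB/N hippocampus, and the lowest mir-298 share is 94.8%.

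The neighboring hairpins of the Gnas locus varied together. Of all tested pairs of other hairpins, the one most like miR-296-3p over the 13 libraries was miR-298-5p (Pearson r of log2 CPM 0.93, Spearman rho 0.93), and the reverse also held. After each group's mean was subtracted, r was 0.96. The opposite arms of the same hairpins were less alike, with r = 0.37 for miR-296-5p against miR-296-3p and 0.67 for miR-298-3p against miR-298-5p. Counts of miR-298-3p were low, at 5 to 41 per library, and their part in its lower r was not tested. These correlations are descriptions over libraries that also share depth and tissue. The ratio of miR-298-5p to miR-296-3p counts was 4.40 to 6.64 in every library, with a median of 5.54, although miR-298-5p itself ranged from 20.9 to 62.5 CPM. The log2 ratio differed by −0.07 between hippocampus and PFC within genotype (exact permutation test, two-sided, p = 0.45, adjusted 0.59). That value also pooled opposite directions. In FVB/N mice alone it was −0.27, with every hippocampal library (2.37 to 2.45) below every PFC library (2.65 to 2.73), and the exact permutation p of 0.10 is the smallest that 3 against 3 libraries allow. In TgR mice alone it was 0.13 (exact permutation p = 0.37), and the groups overlapped.

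The patterns next most like miR-296-3p were those of miR-6911-3p, miR-148b-5p, miR-1839-5p and miR-770-5p (r = 0.85 to 0.84). For miR-298-5p they were miR-501-3p, miR-3099-3p, miR-6911-3p and miR-770-5p (0.83 to 0.78). Those most like miR-335-3p were miR-873a-5p (0.93), miR-1981-3p (0.93), miR-184-3p, miR-135a-5p and miR-135a-1-3p (each 0.89). Its own 5p arm, at 0.85, was less like it over the same 13 libraries.

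Other imprinted miRNAs were read from a list of 52 names, from Igf2, H19 and mostly the large Dlk1-Dio3 cluster, of which 91 pairs were tested. That list was written with earlier results of these data known, so its calls are a description. Between hippocampus and PFC in FVB/N mice, where both arms of mir-335 passed, edgeR called none of the 91. Of the 91, 7 had an unadjusted p under 0.05, beside 152 of all 751 tested pairs. DESeq2 called 3, beside 17.1% of the pairs to which it gave an adjusted p. The median log2 fold change of the 91 was −0.06 beside −0.02 over all tested pairs. In TgR mice 4 were called lower in hippocampus, miR-369-5p (−0.63), miR-379-5p (−0.63), miR-411-5p (−0.44) and miR-541-5p (−0.57), and none higher, while 7.99% of all tested pairs were called, 29 higher and 31 lower. Of the 91, 19 had an unadjusted p under 0.05, beside 151 of all 751 tested pairs. DESeq2 called 9, beside 10.9% of all pairs. The median of the 91 was −0.23, beside 0.02 over all pairs. In TgR against FVB/N hippocampus, miR-370-3p (−0.79, SE 0.17) and miR-412-5p (−0.73, SE 0.15) were called lower (edgeR adjusted p = 0.045 for both) and none higher, beside 3.44% of all tested pairs called. Of the 91, 20 had an unadjusted p under 0.05, beside 127 of all 726 tested pairs. DESeq2 called 10, beside 7.75% of all pairs with an adjusted p. The median of the 91 was −0.15, beside −0.0031 over all pairs. In PFC none was called by edgeR or DESeq2, and 2 had an unadjusted p under 0.05, beside 19 of all 730 tested pairs. The most abundant of the list, miR-381-3p (7130 CPM on average), differed by −0.45 (SE 0.13) in hippocampus and 0.16 (SE 0.19) in PFC and was called in neither. The next most abundant, miR-434-5p (4229 CPM), differed by −0.75 (SE 0.19) in hippocampus and 0.03 (SE 0.13) in PFC and was called in neither.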

How the data were processed

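Small RNA libraries were made from total RNA of hippocampus or PFC. The authors checked reads with FastQC, assigned them to miRBase hairpins and mature miRNAs with miRExpress and used DESeq2 for their own tests. The deposited files hold raw counts of reads per pair of hairpin and mature miRNA, 1 file per library, and were read as deposited. Loci came from the GENCODE and RefSeq annotation of GRCm38.

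Pairs were filtered with filterByExpr (minimum count 10), scaled by TMM and tested with edgeR 4.0.16 in R 4.3.3 (quasi-likelihood, Benjamini-Hochberg adjustment over all tested pairs, threshold 0.05). Genotype was tested within each region's libraries, and region within genotype in a fit of all 13. DESeq2 1.42.0 was an alternative, run on the filtered pairs. Others were size factors, library totals, no filter, 1 row per mature miRNA, other sets of libraries, a replicate block and leaving out each library. CPM used TMM over all 13 libraries. Arm shares and count ratios (pseudocount 0.5) were compared by exact permutation of libraries. Correlations used log2(CPM + 1). The tests were checked on simulated data.

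Named miRNAs were the 6 arms, the 5 miRNAs most correlated with each hairpin's main arm, and, of the imprinted list, those called and the 2 most abundant. Members, lists and marker sets were chosen with earlier results of these data known. Per the labels, the number of mice equals the number of libraries in each group. Depth was 8769851 to 18385985 counts per library. Reads carry no molecular identifiers. The Wilson intervals of arm shares cover counting error only. Fold change intervals are normal approximations from the SE of the edgeR fit, which includes spread between libraries. mRNA of Mest and Gnas was not analysed here.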

Additional observations from a re-analysis of the deposited data

Results flagged for a closer look

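The log2 ratio of miR-298-5p to miR-296-3p counts moved in opposite directions with genotype in the 2 regions. In hippocampus every TgR library (2.47 to 2.53) was above every FVB/N library (2.37 to 2.45), a difference of 0.077. In PFC every TgR library (2.14 to 2.63) was below every FVB/N library (2.65 to 2.73), a difference of −0.33. The difference between the regions was not tested. The counting error of this ratio in a single library was 0.13 to 0.27 on the log2 scale, above the hippocampal difference. In the 4 TgR PFC libraries, the one group large enough to be examined for a library apart from the others, none was found among the 10 measures.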

How the results depend on the processing

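Counts of called pairs depended on the tool, the filter and single libraries. In TgR against FVB/N hippocampus edgeR called 25, DESeq2 54, no filter 63 and the replicate block 9, and 1 to 28 with a library left out (1 without FVB/N replicate 3, 12 without FVB/N replicate 1, 9 without TgR replicate 3). In PFC 1 was called throughout. Between regions in FVB/N mice, 40 became 91 by DESeq2, 69 without a filter, 24 from FVB/N libraries alone and 23 to 60 with a library left out (23 without FVB/N hippocampus replicate 2). In TgR mice, 60 became 28 to 62 with a library left out (39, 29, 28 and 31 without TgR PFC replicates 1 and 3 and TgR hippocampus replicates 1 and 3). The difference of genotype effects went from 4 to 26 by DESeq2, 13 without a filter and 2 to 8 with a library left out. With library totals alone, 71.0% of calls between regions in TgR mice were higher in hippocampus, beside 48.3% under TMM. The median log2 fold change over all tested pairs was then 0.14, beside 0.02 under TMM.

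Several small differences changed sign. The hippocampus to PFC difference in the mir-335 share was −4.22 points in FVB/N libraries alone, that of mir-298 was 0.358 in TgR libraries alone, and the log2 ratio of miR-298-5p to miR-296-3p was 0.13 in TgR libraries alone. With a library left out these ran from 1.61 to 3.85, −0.382 to 0.201 and −0.11 to −0.03, and the mir-335 share in PFC by genotype from −5.60 to −1.11. With a library left out, log2 fold changes by genotype in PFC ran from −0.066 to 0.16 for miR-335-5p and −0.32 to 0.21 for miR-296-3p. Between regions in FVB/N mice they ran from −0.10 to 0.51 for miR-298-5p and −0.28 to 0.057 for miR-296-5p. In TgR mice they ran from −0.13 to 0.49 for miR-296-5p, −0.59 to 0.37 for miR-298-3p and −0.12 to 0.30 for miR-296-3p. The causes were not tested.

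Whether replicate numbers pair the samples was not settled, and the main tests treated libraries as unpaired. Deviations of same-numbered libraries correlated at −0.30 to 0.48, in none of the 6 pairs of groups all above 0.1, and 19 of 36 closest matches had the same number. Between the regions of FVB/N mice, this held for 3 of 3 PFC and 2 of 3 hippocampal libraries. Between those of TgR mice, it held for 2 of 3 PFC and 1 of 3 hippocampal libraries. With the replicate block, calls between regions were 52 in FVB/N and 58 in TgR mice, and 5 for the difference of genotype effects. Depth limits miR-298-3p (5 to 41 counts per library) and the arms of mir-296 most.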
